A study of Mus musculus with 18 samples.

Results

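The nuclei described here are those of pericytes and vascular smooth muscle, the contractile and supporting cells on the outside of brain vessels, in single-nucleus RNA-seq of the mouse hippocampus (Hip) and prefrontal cortex (PFC). They were chosen by their own transcripts. A kept nucleus (at least 200 genes and at most 10% mitochondrial UMIs, the unique molecular identifiers that count single transcripts) was a member when Rgs5, Pdgfrb, Notch3, Atp13a5 and Acta2 together gave at least 3 UMIs. That sum also had to be at least 2 times the summed UMIs of 12 genes of other cells (Slc17a7, Gad1, Gad2, Mog, Mag, Pdgfra, Aqp4, Gja1, Csf1r, Flt1, Cldn5 and Slc6a13). This gave 933 nuclei of 138000, with 420 in Hip and 513 in PFC. The levels of these 17 genes in the members follow from the choice and are given as a description with no test.

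Pericytes sit within the basement membrane of capillaries, and smooth muscle cells form the contractile coat of arteries and arterioles. Endothelial cells recruit both with PDGF-B, which binds the receptor encoded by Pdgfrb, and Notch3 on the mural cell reads ligands on the endothelium. Brain pericytes are known for their ATPase Atp13a5, for a potassium channel built from Kcnj8 and Abcc9 and for vitronectin (Vtn). Smooth muscle is known for alpha-actin (Acta2), transgelin (Tagln) and the smooth muscle myosin heavy chain (Myh11).

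The study compared 3 groups of Kun Ming mice at 8 weeks of age, with 3 mice in each and both regions of each mouse sequenced, which gave 18 libraries. GF mice were raised germ-free, and SPF mice carried a specific pathogen-free microbiota and were raised under other conditions. CGF mice were GF mice that shared a cage with an SPF mouse from 4 weeks of age until tissue was taken. Nuclei came from frozen, homogenised tissue, and the measured RNA is that of nuclei.

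The libraries held 20336250 to 71463928 UMIs. The PFC libraries of SPF and CGF mice were the shallowest (20336250 to 26949210 UMIs), against 59126586 to 71463928 in the PFC of GF mice, so that depth and group cannot be told apart in PFC. In the same libraries Gm42418, a gene model singled out after its values were seen, took 2.54% to 5.90% of the member UMIs in SPF and CGF mice and 0.0439% to 0.0618% in GF mice. In Hip the range was 0.0574% to 0.0688% for GF libraries, 0.145% to 0.264% for SPF and 0.185% to 0.239% for CGF. Depth was uneven in Hip as well. There the highest median UMIs of members in a GF library (2042) lay below the lowest SPF (2287) and CGF (2702) medians. Mean UMIs per kept nucleus were at most 6856 for GF libraries and at least 7522 for SPF, while CGF (from 6726) overlapped GF. The mitochondrial filter removed 189 to 237 barcodes per GF library of Hip, against 20 to 60 per SPF library. The mouse numbers used here are those of the deposited libraries, and the library table of the study has the numbers of GF mice 6 and 7 exchanged in both regions, which leaves the group and the pairing of regions as they are. Any pair of libraries shared 6 to 29 barcodes of kept nuclei, at most 0.366% of the smaller library, and 0 barcodes were members in more than 1 library.

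Members with more UMIs of the rule genes carried more of the other transcripts of mural cells. Among the 648 nuclei with at least 5 UMIs of the 5 rule genes, 99.2% held a UMI of the 40 pericyte and muscle markers outside the rule, with a median of 29 such UMIs. The 92 nuclei with 4 rule UMIs had a median of 6, with 89.1% holding at least 1, and the 193 nuclei with 3 rule UMIs, just inside the threshold, had a median of 2, with 80.3% holding at least 1. The 193 nuclei with 3 rule UMIs instead had a median of 14 UMIs of 7 astrocyte markers, where the 648 had 1. The 703 nuclei with 2 rule UMIs, just outside, looked alike, with medians of 2 and 11 UMIs. A member whose astrocyte marker UMIs exceeded its pericyte and muscle marker UMIs is called astrocyte-marked below, and 182 of 933 were. This was 64.2% of the members with 3 rule UMIs, 37.0% of those with 4 and 3.70% of those with at least 5. The astrocyte-marked share was not even between libraries. The Hip libraries of GF mice ranged from 0% to 14.3%, those of SPF mice from 12.9% to 27.3% and those of CGF mice from 17.8% to 52.6%. The PFC libraries ranged from 14.9% to 24.6% (GF), 7.69% to 12.2% (SPF) and 16.7% to 25.9% (CGF). The label thus goes against the markers of these 182 members. The neuronal markers had a median of 5 UMIs over all members.

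**Figure D1:**
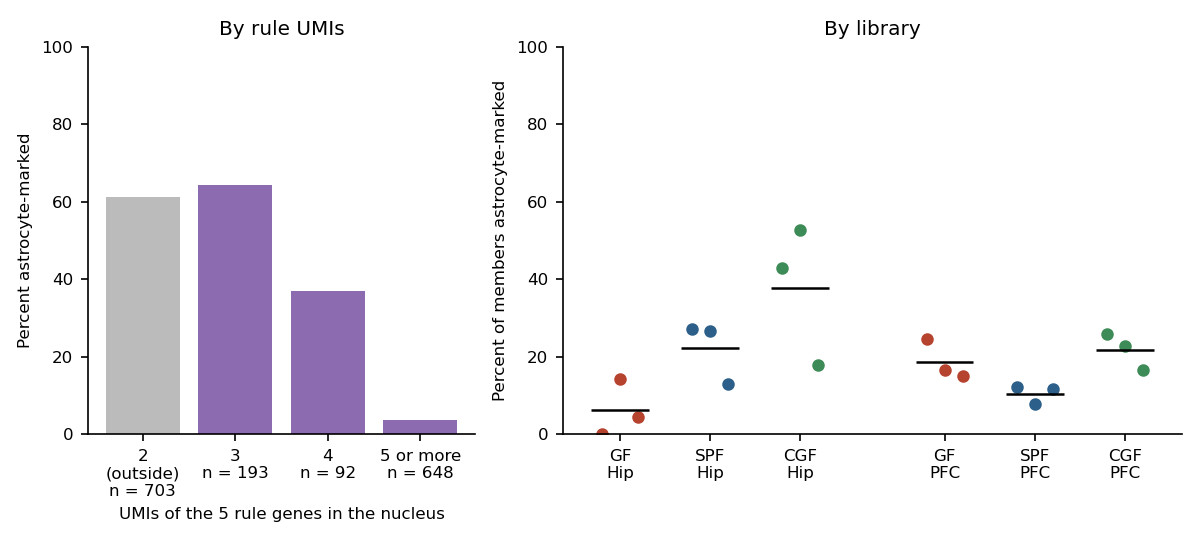
Left, percent of nuclei that were astrocyte-marked, by the UMIs of the 5 rule genes, with the 703 nuclei just outside the rule in grey. Right, percent of the members that were astrocyte-marked in each library (points), with the mean of the 3 mice as a line, ranging from 0% to 52.6%. The share falls from 64.2% at 3 rule UMIs to 3.70% at 5 or more.

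The 5 rule genes differed in how many members they marked. Atp13a5 was found in 746 members (80.0%), Pdgfrb in 645 (69.1%), Notch3 in 529 (56.7%), Rgs5 in 54.9% and Acta2 in 80 (8.57%). The same genes were also counted in neurons, where free RNA, doublets and low expression were not told apart. Among 28787 nuclei with at least 3 UMIs of the glutamate transporter Slc17a7, which were deeper (median 8935 UMIs against 1905 in members), Atp13a5 was found in 6.89%, Rgs5 in 3.24%, Notch3 in 3.19%, Pdgfrb in 3.06% and Acta2 in 0.698%. Atp13a5 gave the most UMIs in members (5098), followed by Rgs5 (4221), Pdgfrb (1678), Notch3 (1374) and Acta2 (1160), and the 1160 UMIs of Acta2 came from 80 nuclei.

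The members were divided by Atp13a5 and Acta2. Those with Atp13a5 and no Acta2 are called the pericyte side (725 nuclei, 77.7%), and those with Acta2 and no Atp13a5 the muscle side (59 nuclei, 6.32%). A further 21 nuclei had both and 128 had neither. The 21 nuclei with both had a median of 5512 UMIs, against 2679 on the muscle side and 1820 on the pericyte side. Of the 128 with neither, 66 were astrocyte-marked, against 111 of the 725 on the pericyte side, 3 of the 59 on the muscle side and 2 of the 21 with both.

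The sequence just before the start of the 2 genes that define the sides, and of the muscle marker Myl9, is printed because the muscle side turns on a smooth muscle actin whose transcription is known to depend on serum response factor and its partner myocardin, which act through CArG boxes. The 250 bases before the start of Acta2 (chr19:34255374-34255623, minus strand), Myl9 (chr2:156775214-156775463, plus strand) and Atp13a5 (chr16:29378733-29378982, minus strand) come from RefSeq, build GRCm38.p6. Capitals mark CArG boxes, with at most 1 letter of the inner 6 other than A or T.
Acta2: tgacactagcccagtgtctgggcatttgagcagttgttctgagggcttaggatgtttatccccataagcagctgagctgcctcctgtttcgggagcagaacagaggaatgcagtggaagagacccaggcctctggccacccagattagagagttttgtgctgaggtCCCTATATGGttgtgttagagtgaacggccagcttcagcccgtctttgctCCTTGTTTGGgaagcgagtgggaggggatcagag
Myl9: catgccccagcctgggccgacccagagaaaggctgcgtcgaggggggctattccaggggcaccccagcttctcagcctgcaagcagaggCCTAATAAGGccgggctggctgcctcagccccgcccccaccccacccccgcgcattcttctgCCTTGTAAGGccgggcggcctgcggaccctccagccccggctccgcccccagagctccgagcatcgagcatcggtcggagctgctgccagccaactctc
Atp13a5: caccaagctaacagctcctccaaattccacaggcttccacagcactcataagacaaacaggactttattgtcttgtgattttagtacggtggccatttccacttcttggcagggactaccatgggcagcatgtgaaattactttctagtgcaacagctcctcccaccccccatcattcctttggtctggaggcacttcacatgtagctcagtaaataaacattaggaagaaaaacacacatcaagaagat
The Acta2 window held 2 such boxes, which begin 84 and 34 bases before the start. The Myl9 window held 2, at 161 and 99 bases, of which the first has all 6 inner letters A or T. The Atp13a5 window held none. Of 32851 mouse promoter windows of this length, 8.59% held a CArG box with at most 1 other letter and 1.47% one with none. Of the muscle markers outside the rule, 15 of 20 could be matched to a window, and 1 of these, Myl9, held a box of either kind. Of the pericyte markers 15 of 20 could be matched, and 2, Egflam and Gper1, held a box with 1 other letter. A match describes the letters of the window and is not a site of binding.

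Muscle markers were higher on the muscle side (12 of 18 tested), and 6 of 17 tested pericyte markers were higher on the pericyte side. The comparison was made within mice, on UMIs of both regions summed per mouse and side. It used the 4 mice that had at least 5 nuclei on each side (CGF 19, GF 6, GF 7 and SPF 32, in this order below), with 48 muscle side and 368 pericyte side nuclei. The sides drew on the regions in unlike parts. In CGF 19 the muscle side had 15 nuclei from Hip and 1 from PFC, and the pericyte side 46 and 52. Comparing within mice leaves this difference in place, so side and region are partly mixed. Of 5359 genes tested with edgeR, 85 were higher on the muscle side (1.59%) and 72 were higher on the pericyte side (1.34%), at an adjusted p under 0.05. The sides were chosen by expression and Acta2 and Atp13a5 each fall to 0 on the other side by definition, so the calls describe the selected nuclei. Of the 259580 muscle side UMIs of the 4 mice, 53297 came from 1 nucleus of CGF 19. Without members of over 3 times the median UMIs of their library's members, which leaves this nucleus out, 204 genes were called.

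On the muscle side, 12 of the 18 tested muscle markers were higher, with a median log2 fold change of 3.63 over the 18 against -0.08 over all genes tested. Tagln, an actin cross-linking protein of smooth muscle, reached 1860, 1000, 3528 and 409 UMIs per 1000000 UMIs, with library sizes scaled by the TMM method (CPM), on the muscle side and 3.70, 0, 3.88 and 2.81 on the pericyte side. Each mouse was higher on the muscle side, and the 3 UMIs of Tagln on the pericyte side put the ratio of summed UMIs at 690 (counting interval 235 to 3355). By nucleus, Tagln was found in 34 of 59 on the muscle side (57.6%) and 5 of 725 on the pericyte side (0.690%).
Myh11, the myosin that drives contraction, was at 1838, 371, 752 and 947 CPM against 48.1, 28.3, 38.8 and 76.0 (log2 fold change 4.24 ± 0.48 SE, edgeR adjusted p = 2.49e-04). The sides did not overlap, and Myh11 was found in 74.6% of the muscle side nuclei and 8.55% of the pericyte side nuclei. Pln, the phospholamban that restrains the calcium pump of the sarcoplasmic reticulum, was at 610, 222, 366 and 108 CPM against 0, 0, 0 and 5.63, which is 113 UMIs against 2 (ratio 243, counting interval 65.6 to 2027). Cnn1, calponin, was at 125, 37.1, 135 and 21.5 CPM and had no UMI on the pericyte side, which makes it at least 37.2-fold higher when 3 UMIs are allowed there over the 4 mice. The regulatory light chain Myl9 was at 1323, 556, 2005 and 409 CPM against 92.6, 209, 89.2 and 81.6, so it was also well measured on the pericyte side. Lmod1, Tpm2, Synpo2, Flna, Tpm1, Mylk and Map3k7cl made up the 12, with log2 fold changes of 2.06 to 5.14.

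Of 17 tested genes of the transcription factor list, 2 were higher on the muscle side and none on the pericyte side (list median 0.52). Myocd, the myocardin that partners serum response factor, was at 272, 74.1, 135 and 172 CPM on the muscle side and 0, 5.66, 0 and 2.81 on the pericyte side, 54 UMIs against 2 (ratio 116, counting interval 30.6 to 981). Each of the 4 mice was higher on the muscle side. Csrp1, a LIM protein of smooth muscle, was the other (log2 fold change 3.07 ± 0.47, edgeR adjusted p = 0.00265). Other genes with large differences were the transporter Slc22a3 (27 UMIs against 0, at least 38.6-fold), Cytl1 (16 against 0, at least 22.9-fold), the amine oxidase Aoc3 (39 against 1, ratio 167, counting interval 28.3 to 6779), the elastic fibre protein Fbln5 (85 against 5), Hspb2 (24 against 2, ratio 51.5, counting interval 12.8 to 450), Mustn1 (37 against 4) and Marveld1 (43 against 7).

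Of 23 tested basement membrane genes, 3 were higher on the muscle side, Col18a1 (4.18), Col4a6 (2.44) and Col4a5 (2.36), and 2 on the pericyte side, the laminin chains Lama2 (-2.18) and Lamc1 (-1.58), all as log2 fold changes, with a list median of 0.71. Without the astrocyte-marked nuclei Col4a6 was at 2.47 and no longer called. Lama2 was at 95.6, 148, 289 and 194 CPM on the muscle side and 941, 583, 838 and 698 on the pericyte side, with no overlap. Of 22 PDGF, TGF-beta and BMP genes, 3 were higher on the muscle side and none on the pericyte side. They were Pdgfa (2.32), Pdgfd (1.92) and Ltbp1 (3.24), which encode 2 PDGF ligands and a protein that holds latent TGF-beta in the matrix. Dcn, a matrix proteoglycan of fibroblasts, was the 1 of 5 tested fibroblast markers that was higher on the muscle side (1.68 ± 0.42, edgeR adjusted p = 0.0458), and without the astrocyte-marked nuclei it was at 1.57 and no longer called.

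On the pericyte side, 6 of the 17 tested pericyte markers were higher, with a list median of -1.46 on the same scale of muscle over pericyte side. Abcc9, the sulfonylurea receptor, was at 407, 605, 306 and 512.2 CPM on the pericyte side and 7.35, 0, 0 and 0 on the muscle side. It was found in 335 of 725 pericyte side nuclei (46.2%) and 1 of 59 muscle side nuclei (1.69%), and the summed UMIs of 478 against 1 give a ratio of 111 (counting interval 19.9 to 4408). Kcnj8, the channel pore that works with Abcc9, was at 48.1, 192, 109 and 61.9 CPM against 0 in each mouse, at least 7.53-fold higher. Both parts of this potassium channel were thus near 0 on the muscle side, where 0 of 259580 UMIs were Kcnj8 and 1 was Abcc9. Vtn was at 581, 1080, 725 and 642 CPM against 44.1, 74.1, 347 and 43.0, lower on the muscle side in each mouse and still found in 25.4% of its nuclei. Art3 (185 UMIs against 2, ratio 21.6, counting interval 5.88 to 179), the proline transporter Slc6a20a (-2.29) and Egflam (-2.22) completed the 6.

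Grm3, a metabotropic glutamate receptor, was at 970, 1080, 1067 and 1109 CPM against 88.2, 111, 57.8 and 129, with a spread between mice far below the difference. Pde8b, a cyclic AMP phosphodiesterase, was at 1589, 2110, 2184 and 1525 CPM against 66.2, 37.1, 154 and 64.6 (log2 fold change -4.51 ± 0.54, edgeR adjusted p = 3.49e-04). Pla1a, Ggt1, Dcbld1 and Pde4c had 77 to 105 UMIs on the pericyte side and 0 on the muscle side, bounds of 5.98-fold to 8.15-fold. Grik1 (83 UMIs against 1, ratio 19.3, counting interval 3.38 to 773) and Plxdc1 (199 against 4) were also lower on the muscle side.
Of 24 tested ion channel and calcium genes, 1 was higher on the muscle side, the plasma membrane pump Atp2b4 (1.93), and 2 were higher on the pericyte side, among them the IP3 receptor Itpr2 (-3.44). Of 19 adhesion genes Filip1l (2.12) and the cadherin Cdh6 (2.07) were higher on the muscle side, and Cdh6 was at 1.97 and no longer called without the astrocyte-marked nuclei. Pde3a, a phosphodiesterase that responds to cyclic GMP, was the 1 of 14 vasoactive and cGMP genes called, at 1867, 408, 1542 and 1076 CPM on the muscle side and 330, 288, 396 and 231 on the pericyte side. Among 19 transporters, the monocarboxylate carrier Slc16a12 (-3.08), the manganese exporter Slc30a10 (122 UMIs against 3, ratio 9.47, counting interval 3.17 to 46.6) and the chloride importer Slc12a2 (-1.96) were higher on the pericyte side.

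Several lists showed no call between the sides. These were the Notch pathway (14 tested), endothelial markers (14), immune receptors and chemokines (15) and oxidative phosphorylation (25), in edgeR with 157 genes called in all and 2.93% of the genes tested. At this share lists of their size can hold no call, so this is no result about them. Notch3 itself, a rule gene, was at 309, 296, 405 and 409 CPM on the muscle side and 548, 662, 508 and 560 on the pericyte side. Rgs5 was at 728, 148, 1542 and 710 CPM against 1081, 1488, 989 and 2618, so these groups overlapped, and Pdgfrb was at 176, 148, 212 and 194 against 670, 894, 764 and 622, without overlap.
The number of calls rested on single mice. It was 9 without CGF 19, 21 without GF 7 and 285 without SPF 32, and 0 when Hip libraries alone were used. Of the genes described here, Tagln, Pln, Lmod1, Myh11, Fbln5 and Pde8b were called without any 1 of the 4 mice. Cnn1 and Hspb2 were not tested without CGF 19 or GF 7, Aoc3 not without CGF 19, and Cytl1 not without CGF 19, GF 6 or GF 7, since their counts then fell below the filter.

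**Figure D2:**
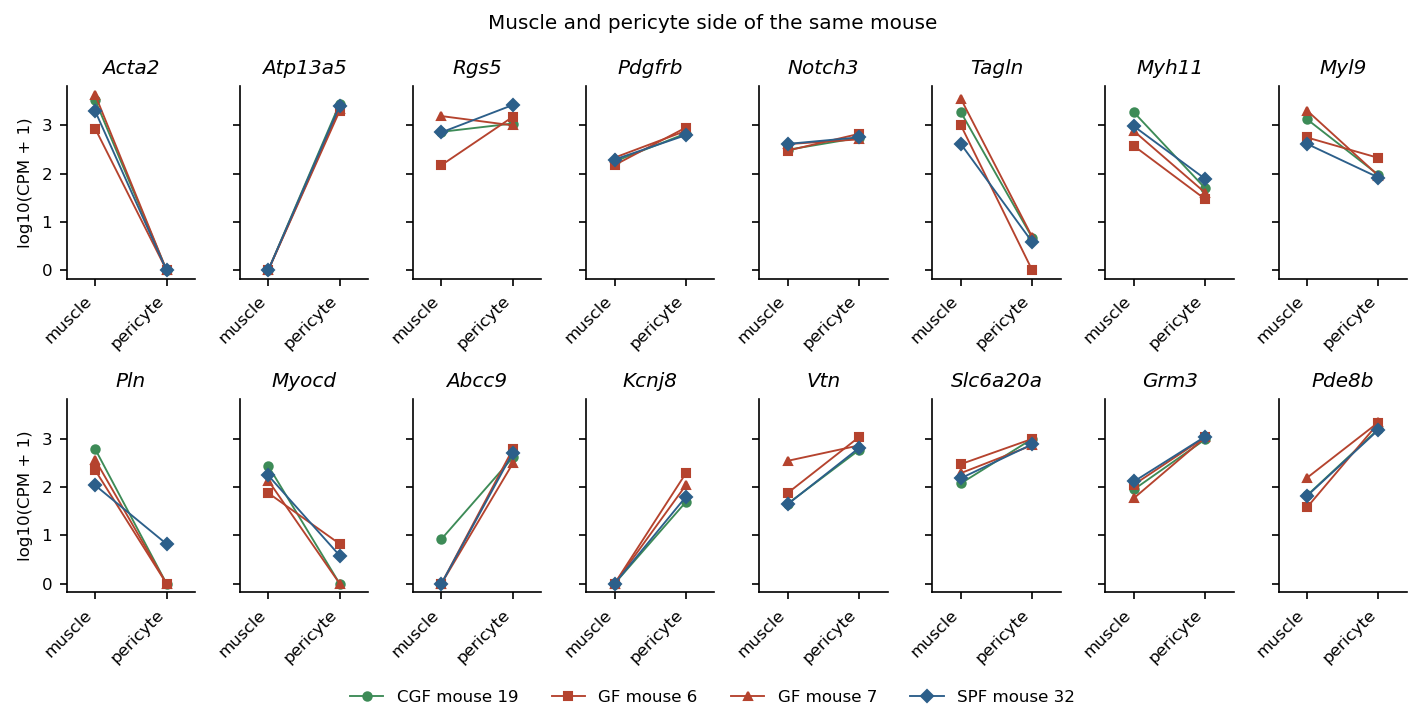
Level of 16 genes (log10 of CPM plus 1) on the muscle and the pericyte side of the same mouse, with 1 line for each of the 4 mice. Acta2 and Atp13a5 define the sides. Tagln, Myh11, Myl9, Pln and Myocd are higher on the muscle side in each mouse, and Abcc9, Kcnj8, Vtn, Slc6a20a, Grm3 and Pde8b are higher on the pericyte side in each mouse.

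The members were next set against 1256 endothelial nuclei of the same libraries, which were chosen by Flt1, Cldn5 and Pecam1. The UMIs of these genes had to sum to at least 3. The sum also had to be at least 2 times the UMIs of the 5 rule genes, Slc17a7, Gad1, Gad2, Mog, Mag, Pdgfra, Aqp4, Gja1, Csf1r and Slc6a13 together. Members were left out. Of 6656 genes tested with edgeR, with the library as a block, 1194 were higher in members (17.9%) and 1298 were higher in endothelial nuclei (19.5%) at an adjusted p under 0.05. Both sets were selected by expression, so these calls describe the 2 selected sets and do not bear out their names.
Of 19 tested pericyte markers outside the rule, 17 were higher in members and the median log2 fold change was 3.14, against 0.00 over all genes. Slc38a11, an amino acid transporter, led them at 165 to 678 CPM in the members of the 18 libraries (median 360.0) and 0 to 31.5 in endothelial nuclei (5.31 ± 0.24, edgeR adjusted p = 1.41e-17). The ranges did not overlap. Abcc9 was at 134 to 868 CPM (median 301) against 0 to 49.1, and Vtn at 116 to 1276 (median 654) against 0 to 199. Ebf1, a transcription factor on the same list, was at a median of 1715 CPM in members and 1762 in endothelial nuclei (0.10 ± 0.13, edgeR adjusted p = 0.586). Slc22a8, an organic anion transporter, was lower in members in 18 of 18 libraries, at a median of 95.8 CPM against 234 (-1.33 ± 0.15, edgeR adjusted p = 7.90e-09).
Of 13 muscle markers 11 were higher in members (median 2.57). The levels of the 5 rule genes follow from both selections here and are given as a description. Rgs5 was at a median of 1246 CPM in members and 721 in endothelial nuclei and higher in members in 14 of 18 libraries. Atp13a5 was at 1630 against 27.5.

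Signalling genes were called in both directions of this comparison. The list counts below stand beside 17.9% higher in members and 19.5% higher in endothelial nuclei over all genes. The Notch targets Heyl (median 54.9 CPM against 0) and Hey2 (37.4 against 5.19) were higher in members, with Dtx3, Notch2 and Maml3, while the ligand Jag2 (34.2 against 92.6) and the receptor Notch4 (22.8 against 62.3) were among 5 genes higher in endothelial nuclei, of 17 tested. Pdgfb, the ligand of the receptor that Pdgfrb encodes, was at a median of 54.2 CPM in members and 194 in endothelial nuclei and was higher in the endothelium in 18 of 18 libraries. The PDGF, TGF-beta and BMP list had 4 genes higher in members and 12 higher in endothelial nuclei of 23. The 4 higher in members are a share near that of all genes. Bmp5 (3.67 ± 0.35) led the former and Id1, a target of BMP signals (-2.32 ± 0.24), the latter.
Of 16 tested genes of vasoactive receptors and cGMP signalling, 13 were higher in members and 1 was lower (list median 1.97). Ednra, the endothelin receptor of contractile cells, was at 107 to 401 CPM in members (median 165) and 0 to 15.7 in endothelial nuclei. Pde3a (3.56) and the guanylate cyclase subunit Gucy1a1 (2.64) were higher too, and Calcrl (-1.30), the receptor part for CGRP and adrenomedullin, was the 1 that was lower. Of 28 channel and calcium genes 19 were higher and 3 lower. The calcium-activated chloride channel Ano1 was at a median of 346 CPM against 3.02 and the L-type calcium channel Cacna1c at 953 against 190.
Carmn, a noncoding RNA of smooth muscle and pericytes, had the largest rise among the genes named by rule in this comparison (5.45 ± 0.26), at 66.0 to 357 CPM in members and 0 to 19.6 in endothelial nuclei.

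Matrix, adhesion, transport and regulatory genes were also called in both directions. Their counts again stand beside 17.9% higher in members and 19.5% higher in endothelial nuclei over all genes. Of 26 basement membrane genes 13 were higher in members, Lama2 (4.04) and Col4a6 (3.65) among them, and 7 were higher in endothelial nuclei, among them Fn1 (-1.81) and Col4a1 (-0.81). Of 21 adhesion genes 14 were higher in members and 1, Itga6 (-1.99), was lower. Of 20 transporters 11 were higher, such as Slc30a10 (3.56) and Slc16a12 (3.44), and 5 were lower, such as the cationic amino acid carrier Slc7a1 (-3.16). Of 16 transcription factors 8 were higher, Tbx2 (3.92), Tbx18 (3.75) and Zic1 (3.06) first, and 6 were lower, with Foxf2 at -1.58. Foxf2 was at a median of 20.2 CPM in members and 59.2 in endothelial nuclei. Il34, a ligand of the microglial receptor Csf1r, was the 1 immune gene of 21 that was higher in members (median 277 CPM against 17.1), and 13 were lower, the interleukin receptor Il1r1 furthest (-3.00). The 14 endothelial markers, of which Pecam1 belongs to the selection, were all lower in members (median -2.77), as were the named transporters Slco1a4, Slc7a5 and Slc38a5.
Lists of other cell types were higher in members as well. Each of 5 tested astrocyte markers and 7 tested fibroblast markers was higher in members, and without the astrocyte-marked nuclei 1 of 3 tested astrocyte markers was. The part of fibroblast RNA in these differences was not tested.

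**Figure D3:**
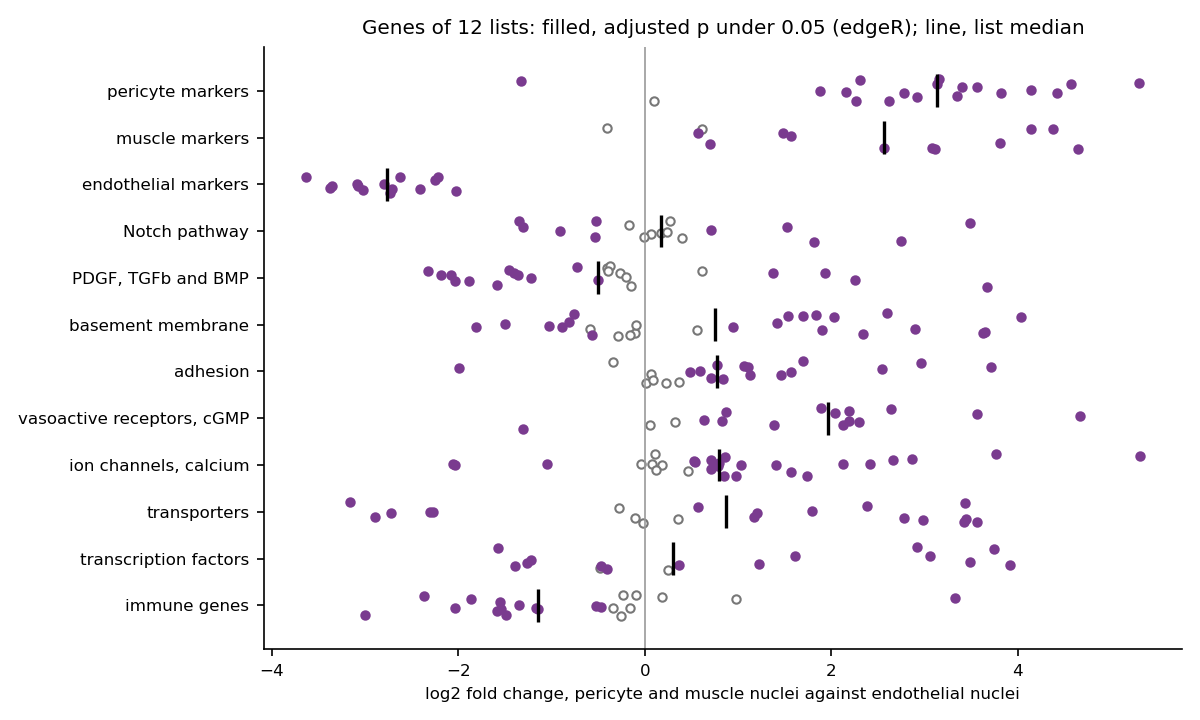
Log2 fold change (members against endothelial nuclei, 18 libraries) of each gene of 12 lists. Filled points passed the test, open points did not, and the line is the list median, from 3.14 for pericyte markers to -2.77 for endothelial markers.

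The share of these nuclei among kept nuclei passed no exact permutation test between GF, SPF and CGF mice, where a test of 3 mice against 3 cannot go below p = 0.1. The Hip shares were 0.172%, 0.559% and 0.521% for GF mice, 0.629%, 0.610% and 0.857% for SPF mice and 0.651%, 0.433% and 0.901% for CGF mice. The GF mice were each below each SPF mouse, with a mean difference of -0.281 percentage points, for which the exact permutation test of 3 against 3 gave p = 0.1, the smallest it allows. The difference was -0.0598 with libraries thinned to the same mean UMIs per kept nucleus, -0.0569 when the rule asked for at least 4 times the UMIs of the 12 genes of other cells, -0.127 with nuclei thinned to 500 UMIs, -0.153 with at least 5 rule UMIs, -0.167 without the astrocyte-marked nuclei and -0.158 without GF mouse 5, with exact p of 0.2 to 0.9. GF mouse 5 was the lowest library, with 14 members of 8129 nuclei (exact Clopper-Pearson 95% interval 0.0942% to 0.289%). Over the 3 groups the exact permutation test gave p = 0.282.
The PFC shares were 0.697% ± 0.0604 for GF mice, 0.777% ± 0.246 for SPF mice and 0.834% ± 0.0658 for CGF mice (mean ± SD, n = 3, exact permutation p = 0.575 over the 3 groups). The GF minus SPF difference was -0.0798 points and turned to 0.0552 without SPF mouse 32. Each GF mouse lay below each CGF mouse, with a difference of -0.136 points (exact permutation p = 0.1, the smallest possible), which was -0.297 with libraries thinned, -0.259 with the ratio of 4 and -0.0283 with at least 5 rule UMIs. SPF mouse 32 was the highest library at 1.05% (exact 95% interval 0.827% to 1.31%). These intervals cover counting error only.
Between regions, the share was lower in Hip than in PFC in 7 of 9 mice, with means of 0.593% and 0.769% (difference -0.177 percentage points, exact two-sided sign-flip permutation p = 0.0352 over the 9 mice). The sign-flip p ranged from 0.00391 with nuclei thinned to 500 UMIs, and 0.0117 with libraries thinned to the same mean UMIs per kept nucleus, to 0.113 with at least 5 rule UMIs (all exact). The difference was -0.0918 points and no longer past 0.05 when at least 5 rule UMIs were asked for, it was -0.164 without high-UMI members (p = 0.0508, exact), and it also missed 0.05 without any 1 of 7 mice, which left differences of -0.190 to -0.130 points.
Taken over vascular nuclei alone (members, endothelial nuclei and fibroblast nuclei by rule), the Hip share was 17.4% to 25.0% for GF mice, 30.8% to 38.9% for SPF and 23.3% to 30.7% for CGF, and the PFC share 21.9% to 25.8%, 35.5% to 39.7% and 37.5% to 52.4%. The exact permutation test over the 3 groups gave p = 0.0107 in each region. With libraries thinned to the same mean UMIs per kept nucleus, GF mouse 5 was at 37.2% in Hip and SPF mouse 32 at 36.2%, so GF and SPF overlapped there. The thinned PFC shares were 24.4% to 31.5% for GF and 34.7% to 38.8% for SPF. With nuclei thinned to 500 UMIs GF and SPF did not overlap in either region. The thinned shares over vascular nuclei were not tested. GF minus SPF alone was -13.8 points in Hip and -13.5 in PFC, each with an exact p = 0.1, and CGF minus SPF was -7.87 and 6.15. Fibroblast nuclei numbered 59 to 85 in the PFC libraries of GF mice against 3 to 10 in SPF and 7 to 17 in CGF, whereas in Hip the numbers overlapped (22 to 130, 41 to 64 and 78 to 108). Their part in the result was not tested.

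The muscle side was small in every library, and its share of the nuclei with a side varied more between mice than between groups. It was 0 of 13 in the Hip of GF mouse 5 and 0 of 44 in the PFC of GF mouse 5 and of CGF mouse 17. Taken as 3 nuclei of the total, a count of 0 allows shares of up to 23.1% and 6.82%, and the exact 95% intervals that are plotted reach 24.7% and 8.04%. The highest share was 24.6% in the Hip of CGF mouse 19 (15 of 61, exact 95% interval 14.5% to 37.3%). The Hip means were 9.44% ± 8.83 for GF mice, 5.87% ± 3.32 for SPF mice and 12.2% ± 10.7 for CGF mice (SD, n = 3, exact permutation p = 0.671). In PFC they were 4.59% ± 3.998, 6.21% ± 6.08 and 1.86% ± 1.85 (exact permutation p = 0.543). All 4 tests over 3 groups, for both shares and both regions, had an adjusted p of 0.671 (exact permutation tests, Benjamini-Hochberg).
Hip had the higher muscle share in 6 of 9 mice, at 9.18% against 4.22%, a difference of 4.96 points (exact sign-flip permutation p = 0.0781). Without the astrocyte-marked nuclei the difference was 6.46 points (p = 0.0391, exact) and without SPF mouse 32 it was 6.08 (p = 0.0313, exact). No other alternative gave a p below that of the main test. The exact sign-flip p was 0.0859 both with at least 5 rule UMIs and without high-UMI members, and 0.203 with the ratio of 4. It was 0.156 with nuclei thinned to 500 UMIs and 0.172 with libraries thinned. Leaving out any other mouse gave 0.0781 to 0.156, with a difference of 2.74 points without CGF mouse 19 (p = 0.156, exact).

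**Figure D4:**
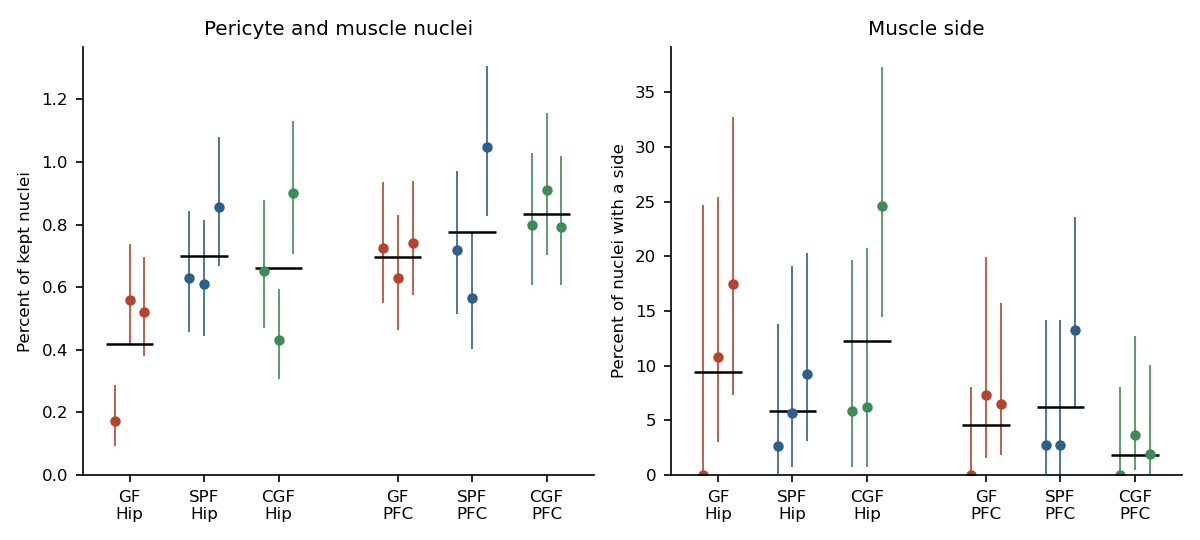
Percent of kept nuclei that were members (left) and percent of nuclei with a side that were on the muscle side (right). Points are libraries with their exact 95% binomial intervals, and lines are means of 3 mice. Groups overlap in both panels except for GF against SPF in the left panel for Hip and GF against CGF in the left panel for PFC.

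The effect of the missing microbiota on transcription was asked by comparing GF with SPF mice within the members, on UMIs summed per library. In Hip, 105 of 4227 tested genes were higher in GF (2.48%) and 18 were lower (0.426%) with edgeR at an adjusted p under 0.05. The Hip members of GF mice were shallower, as given above. With the summed member UMIs of each library thinned in proportion to its mean UMIs per kept nucleus, 96 genes were higher and 14 lower, of 3309 tested. The members stayed those chosen at full depth. The part of member depth in the Hip calls was not tested. The list with the most calls was that of nuclear genes of oxidative phosphorylation, which make up the respiratory chain and ATP synthase. Of 20 tested, 13 were higher in GF and none was lower (list median 1.66 against -0.09 over all genes). Ndufa4, a subunit of the respiratory chain, was at 294, 358 and 432 CPM in GF mice, 78.0, 123 and 104 in SPF and 105, 80.8 and 117 in CGF (GF against SPF 1.85 ± 0.29, edgeR adjusted p = 0.0141). All GF mice lay above all others. Without the astrocyte-marked nuclei 11 of 19 genes were called, with Atp5b (1.255) and Uqcrh (1.16) no longer among them. Cox8a was at 686, 765 and 917 CPM in GF and 147, 197 and 301 in SPF, and the electron carrier Cycs at 196, 158 and 182 against 41.3, 30.8 and 59.6, again without overlap.
In summed UMIs per 1000000, the list was 2.68 times as high in GF as in SPF in the members. The ratio was 2.04 in endothelial nuclei and 2.34 in all kept nuclei of Hip. Nrgn, a transcript of neurons, rose beside it in the members (881, 1068 and 1024 CPM in GF against 230, 339 and 445 in SPF), 2.87 times against 2.18 times in all kept nuclei. Snap25, another neuronal transcript, was at 0.859 times in members, and the 8 neuronal markers summed to 3442 to 4035 CPM in GF and 2726 to 5280 in SPF, which overlap. The 7 astrocyte markers (450.5 to 1516 CPM in GF against 1789 to 4250 in SPF) and the 8 oligodendrocyte markers (431 to 772 against 909 to 1135) were lower in each GF library, and both overlapped without the astrocyte-marked nuclei. Mitochondrial transcripts were higher in GF, at 1.14% to 2.99% of member UMIs for GF libraries, 0.400% to 1.002% for SPF and 0.176% to 0.640% for CGF. The part of RNA from other cells in these rises was not tested. Nrgn was chosen after its values were seen.

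Among the lists of mural genes in Hip, the counts below stand beside 2.91% called over all genes. Of 15 tested pericyte markers 2 were higher in the Hip of GF mice. P2ry14, a receptor for UDP-glucose, was at 431, 434 and 296 CPM in GF, 101, 130 and 104 in SPF and 124, 180 and 145 in CGF (GF against SPF 1.79 ± 0.29, edgeR adjusted p = 0.0141). Ndufa4l2, a mitochondrial protein abundant in mural cells, was at 274, 138 and 182 against 32.1, 49.3 and 59.6 (1.93 ± 0.43, edgeR adjusted p = 0.0333, and 1.80 and no longer called without the astrocyte-marked nuclei). The GF values of both genes lay above the SPF values. The other 13 did not pass, including Vtn at 999, 751 and 546 CPM in GF against 248, 154 and 380 in SPF.
The muscle marker Myl9 was at 215, 193 and 758 CPM in GF and 68.9, 61.7 and 122 in SPF (2.19 ± 0.54, edgeR adjusted p = 0.0488), 1 call of 10. In CGF mice, Myl9 was also above SPF, at 288, 251 and 561. Csrp2, a LIM protein of smooth muscle, was at 137, 48.2 and 144 against 9.18, 24.7 and 17.4, the 1 call of 13 transcription factor genes. Slc12a2 was the 1 of 19 transporters called, at 548, 593 and 455 CPM in GF against 133, 204 and 226 in SPF (1.49 ± 0.30, edgeR adjusted p = 0.0231), and it was at 1.395 and no longer called without the astrocyte-marked nuclei. Pnpla7, a lysophospholipase, and the histone H2afz also rose. Col25a1, Npas3, Zswim5, Slc7a14 and Gabra2 fell, with Npas3 (-2.73, then -2.255) and Zswim5 (-2.60, then -2.81) losing their calls without the astrocyte-marked nuclei.
Further lists showed no call, namely Notch (9 tested), PDGF, TGF-beta and BMP (15), basement membrane (16), adhesion (18), vasoactive and cGMP (14), ion channels (21) and immune genes (11). At 2.91% called over all genes, lists of this size can hold no call, so this is no result about them. The Hip calls were fragile. None of the 123 was left without GF mouse 7 or without any 1 of the SPF mice, and 13 genes were called without GF mouse 6, while 135 were called without GF mouse 5, the library with 14 members.

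In PFC, 165 of 3450 tested genes were higher in GF than in SPF mice (4.78%) and 133 were lower (3.86%) with edgeR, 8.64% together and 7.97% without the astrocyte-marked nuclei, between libraries of the unequal depth given above. The oxidative phosphorylation list had 11 of 17 genes higher and none lower (list median 2.17 against -0.02 over all genes), and 8 of 14 higher without the astrocyte-marked nuclei. Mitochondrial transcripts went the other way, at 0.775% to 1.26% of member UMIs for GF libraries and 2.11% to 3.19% for SPF, with mt-Co1 (-2.42), mt-Nd1 (-2.24), mt-Co3 (-1.165) and mt-Nd5 (-2.84) lower in GF, of which mt-Co3 lost its call without the astrocyte-marked nuclei. Ndufa4 was at 284, 276 and 244 CPM in GF, 52.5, 15.0 and 30.7 in SPF and 57.8, 0 and 51.7 in CGF (GF against SPF 3.04 ± 0.51, edgeR adjusted p = 0.00178). Cox8a was at 508, 668 and 561 against 140.1, 135 and 107, also with no overlap. In summed UMIs per 1000000 the list was 2.91 times as high in GF as in SPF in the members and 3.41 times in endothelial nuclei, and 1.07 times in all kept nuclei of PFC. Nrgn was 2.63 times as high in members, 2.63 in endothelial nuclei and 0.999 in all kept nuclei, and Snap25 was 2.07, 2.59 and 1.32 times as high. The 8 oligodendrocyte markers summed to 593 to 686 CPM in GF members against 263 to 299.7 in SPF, with no overlap, and the 8 neuronal markers to 3867 to 6199 against 1909 to 4675. Their part in the PFC differences was not tested.

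**Figure D5:**
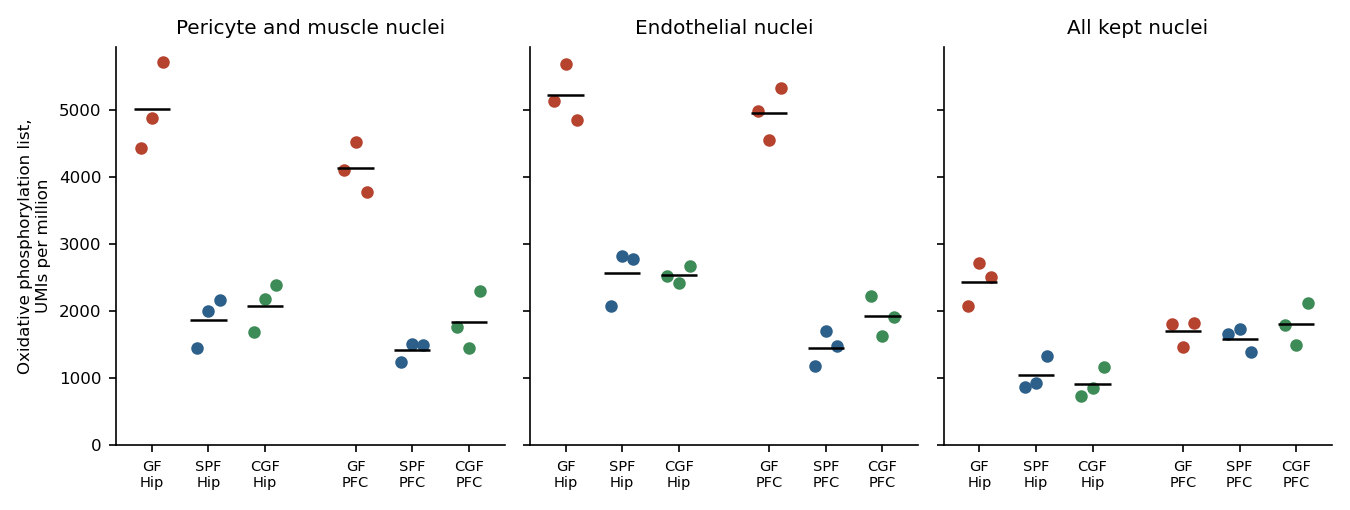
Summed UMIs per 1000000 of the oxidative phosphorylation list in each library (points, mean of 3 mice as a line), for members, endothelial nuclei and all kept nuclei. In Hip the GF libraries are above SPF and CGF in all 3 panels, and in PFC they are above them in members and endothelial nuclei and overlap with them in all kept nuclei.

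Among the lists of mural genes in PFC, the counts below stand beside 8.64% called over all genes. The pericyte markers Egflam (158, 241 and 195 CPM in GF against 701, 375 and 422 in SPF) and Cspg4, the NG2 proteoglycan (52.8, 98.0 and 67.9 against 193, 105 and 223), were lower in GF (-1.32 each), and without the astrocyte-marked nuclei they were at -1.17 and -1.13 and no longer called. Ndufa4l2 was higher (132, 223 and 163 against 35.0, 15.0 and 76.8), which made 3 calls of 16. C1qtnf7 (39.6, 62.4 and 54.3 CPM in GF against 315, 105 and 238 in SPF, -2.06) and Plxdc1 (139, 80.2 and 136 against 543, 315 and 315, -1.66), outside these lists and chosen here after their values were seen, were lower in GF with and without the astrocyte-marked nuclei, and Plxdc1 was not called with at least 5 rule UMIs. Atp13a5, a rule gene given without a test, was at 1446, 1711 and 1548 CPM in GF, 5937, 3296 and 3393 in SPF and 2624, 3976 and 2695 in CGF. In Hip it was at 1489, 1137 and 1744 in GF against 1382, 1573 and 1235 in SPF. The rule asks for at least 3 UMIs in a nucleus of any depth. The median UMIs of PFC members were 1767 to 2007 in GF libraries, 890 to 1170 in SPF and 975 to 1250 in CGF. A fixed count is a larger share of a shallower nucleus, so no contrast of groups or regions is drawn from Atp13a5. The 5 rule genes together were at 3314 to 5186 CPM in the PFC members of GF mice and 5679 to 8967 in those of SPF mice. Other mural genes may follow the same choice of nuclei. Its part in the mural genes called lower in GF members of PFC, here and below, was not tested.
Myh11 was at 46.2, 62.4 and 45.3 CPM in GF and 175, 165 and 361 in SPF (-2.29 ± 0.64, edgeR adjusted p = 0.0363), and Flna, an actin cross-linker, at 19.8, 80.2 and 67.9 against 140.1, 300 and 246, 2 calls of 8 muscle markers. The muscle side held 7 of the PFC members of GF and 11 of those of SPF mice, of which SPF mouse 32 gave 9, and both calls were lost without SPF mouse 32. The connexin Gjc1 and the chloride channel Ano1 were lower in GF (-1.30 and -1.11). These 2 calls of 22 ion channel genes are a share near that of all genes. Without the astrocyte-marked nuclei Gjc1 and Ano1 were at -1.15 and -0.94 and no longer called. Sparc, a matrix protein, was higher in GF (244, 517 and 208 CPM against 70.1, 59.9 and 92.1), as was T-cadherin, Cdh13 (310, 151 and 389 against 52.5, 59.9 and 46.1). They were the 1 call of 15 basement membrane genes (6.67%) and the 1 of 16 adhesion genes (6.25%), shares near that of all genes. The sodium pump subunit Atp1b1 and the ADP/ATP carrier Slc25a4 were higher, 2 calls of 19 transporters, also a share near that of all genes. Notch (8 tested), PDGF, TGF-beta and BMP (10), vasoactive and cGMP (10), transcription factors (12) and immune genes (8) showed no call. At 8.64% called over all genes a list of this size can hold no call, so this is no result about any of them.

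Lars2, Cmss1 and Camk1d, which are outside these lists, were lower in GF members of PFC, as was Gm42418. Lars2 was at 26.4, 53.5 and 22.6 CPM in GF against 841, 1049 and 1090 in SPF, Cmss1 at 290, 232 and 181 against 3800, 4120 and 5366, and Camk1d at 271, 285 and 348 against 3345, 3836 and 4606. Gm42418 itself was at 449, 606 and 448 against 26602, 25367 and 36840. Lrrc45 and mt-Nd5 fell beside them. In the other direction Nrg3os had 82 UMIs in the GF members and 0 in SPF, at least 14.04-fold higher, and Sorbs2os had 87 against 1 (ratio 44.7, counting interval 7.81 to 1785) and Glp2r 66 against 1 (33.9, interval 5.88 to 1359). The factor Klf2 (112, 401 and 190.1 CPM against 0, 30.0 and 15.4) and Oaz1 were also higher in GF. The count of 298 calls fell to 133 without SPF mouse 32, to 147 without GF mouse 5 and to 198 without GF mouse 7. Egflam, Cspg4, Myh11, Flna, Gjc1, Ano1, Sparc, Atp1b1, Nrgn, Klf2 and Glp2r lost their calls without SPF mouse 32, and Ndufa4, Cox8a, Cdh13, Slc25a4, Oaz1, Nrg3os, Sorbs2os, Lars2, Cmss1 and Camk1d were called without any 1 mouse of either group.

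CGF mice, which received a microbiota, were compared with the same SPF mice. With edgeR 0 of 4227 genes differed in Hip and 0 of 3450 in PFC, both 0%, with 222 and 165 genes at an unadjusted p under 0.05. DESeq2 called 4 in Hip and 0 in PFC. The medians of the oxidative phosphorylation list were 0.11 in Hip and 0.36 in PFC. The PFC libraries of SPF and CGF mice were alike in depth and in Gm42418 and unlike those of GF mice, as given above. An effect of colonization and a difference of libraries therefore cannot be told apart in PFC.
Against CGF, which shares the GF libraries with the comparison above, 141 genes were higher in GF in Hip (3.34%) and 65 were lower (1.54%), 4.87% together. The oxidative phosphorylation list had 10 of 20 higher, and the pericyte markers P2ry14, Ndufa4l2 and Art3 were higher, 3 calls of 15. Of 4 tested astrocyte markers 2 were lower in GF, Slc1a3 (19.6, 262 and 235 CPM in GF against 1250, 1903 and 389 in CGF) and Slc4a4. Ptprz1, Gpc5 and Luzp2 were lower as well. The 14 endothelial markers summed to 1991 to 2699 CPM in GF members against 104.7 to 1609 in CGF. The 8 oligodendrocyte markers summed to 431 to 772 against 930 to 2074. Neither overlapped, and without the astrocyte-marked nuclei the endothelial markers did. The neuronal, fibroblast, microglial and choroid markers overlapped. The part of RNA from other cells was not tested. The mitochondrial transcripts mt-Co3 (3.01), mt-Cytb (2.77), mt-Co2 (2.74) and mt-Atp6 (2.54) were higher in GF, with mt-Co3 at 2801, 4947 and 7506 CPM in GF and 255, 566 and 1050 in CGF. Of these 4, mt-Co3 was called without the astrocyte-marked nuclei. Without the astrocyte-marked nuclei 16 genes were called in place of 206, and 2 of 19 oxidative phosphorylation genes, and none of Slc1a3 (-2.62, then -1.06), Slc4a4 (-2.16, then -0.57), P2ry14 (1.37, then 1.11), Ndufa4l2 (1.79, then 1.22) and Art3 (1.87, then 1.33). The 206 calls fell to 0 without CGF mouse 17 or CGF mouse 18, to 6 without GF mouse 7, to 54 without GF mouse 6 and to 118 without GF mouse 5, and were 345 without CGF mouse 19.
In PFC 187 genes were higher in GF than in CGF (5.42%) and 141 were lower (4.09%), 9.51% together and 8.41% without the astrocyte-marked nuclei, and 9 of 17 oxidative phosphorylation genes were higher. Without the astrocyte-marked nuclei 4 of 14 were called, Atp5g1, Atp5g3, Cox8a and Ndufa4. Egflam and Mcam were lower, 2 calls of 16 pericyte markers, of which Egflam (-1.16, then -1.15) lost its call without the astrocyte-marked nuclei, and Mylk was the 1 call of 8 muscle markers, also lower. The count was 135 without GF mouse 5 and 148 without GF mouse 7. Lars2 (-5.12), Il31ra (-5.04), Cmss1 (-4.91) and Camk1d (-3.91) were among the lower genes, as was Gm42418 (-6.27). Nrg3os (5.35) had the largest rise among the genes named by rule. The part of depth and library preparation in these calls was not tested. The 8 neuronal markers summed to 3867 to 6199 CPM in GF members against 1300 to 2929 in CGF, with no overlap. Nrgn was 3.84 times as high in GF members as in CGF members and 1.145 times in all kept nuclei. Snap25 was 3.04 and 1.59 times as high. The astrocyte, oligodendrocyte and endothelial markers overlapped. Their part in these differences was not tested.

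Hip and PFC members were compared in the GF mice, the group whose members had similar depth in both. Their medians were 1791 to 2042 UMIs in Hip and 1767 to 2007 in PFC. The GF libraries as a whole were shallower in Hip, with 49067853 to 56240654 UMIs against 59126586 to 71463928. With edgeR 3 of 4580 genes were higher in Hip (0.0655%) and 0 were lower, and 0.0766% of the genes passed without the astrocyte-marked nuclei. This fit did not pair the 2 regions of a mouse. With the mouse as a block 2 of 5196 genes were higher in Hip and 0 were lower. Tshz2, a zinc finger factor, was at 470, 730 and 531 CPM in Hip and 132, 107 and 109 in PFC (2.32 ± 0.30, edgeR adjusted p = 7.99e-04). Ttr, the transthyretin of the choroid plexus, was at 19.6, 6201 and 1531 CPM in Hip and 0, 0 and 4.53 in PFC, and it was also found in all kept nuclei of the Hip of GF mice at 1191 UMIs per 1000000. The other was a gene model. Ttr lost its call without GF mouse 6 and without GF mouse 7.

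Whether GF and SPF mice differed in the same way in both regions was tested as the difference of the differences. Of 4580 genes 70 passed with edgeR (1.53%), of which 30 had the higher value in Hip (0.655%) and 40 the lower (0.873%), and 24 passed without the astrocyte-marked nuclei (0.613%). With the mouse, from which both regions came, as a block, 44 passed, 26 higher and 18 lower, and 39 of the 70 were among them. Leaving out 1 mouse gave 12 calls (without SPF mouse 30) to 58 (without GF mouse 6). No gene of the pericyte, muscle, Notch, basement membrane, transporter or oxidative phosphorylation lists was called. At 1.53% called over all genes such lists can hold no call, so this is no result about them. The adhesion genes Cdh13 (-3.75) and Itga6 (-3.44) and the connexin Gjc1 (2.00), as log2 fold changes in Hip minus those in PFC, were called, and without the astrocyte-marked nuclei they were at -4.18, -1.61 and 1.70 and no longer called. None of the 3 was called with the mouse as a block (edgeR adjusted p = 0.0808, 0.0751 and 0.0629).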

How the data were processed

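Nuclei were captured with a 10x Genomics droplet kit, and per the labels reads were processed with CASAVA 1.8 and Cell Ranger against mm10. The matrix headers name Cell Ranger 3.1.0. The deposited files hold raw UMI counts per gene and barcode for each of 18 libraries (30905 genes), with no normalization by the authors. The kit version is given differently in the sources used here. All 139924 barcodes held at least 200 genes, and 1924 were removed for over 10% mitochondrial UMIs, which is the filter the study describes.

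The members and the gene lists (419 genes in 21 lists) were chosen with earlier results of these data known. Members were found in each library by the rule, their UMI counts were summed per library (49392 to 390484 UMIs), and the sums were tested with edgeR 4.0.16 (quasi-likelihood, TMM scaling, filter on low counts, R 4.3.3) over the 3 groups of a region together, with Benjamini-Hochberg adjustment over all tested genes and a threshold of 0.05. Sides were compared within mouse and members with endothelial nuclei within library. The comparisons between regions used all 18 libraries, grouped by mouse group and region, with the mouse as a block as an alternative. Levels in CPM are counts per 1000000 of a library's summed UMIs after TMM scaling, and values given as UMIs per 1000000, with their ratios, are without it. Counting intervals are exact at 95% and cover counting error only, not the spread between nuclei or mice. DESeq2 1.42.0 was an alternative. Shares were compared with exact permutation tests (scipy 1.17.1). No doublet caller was run. The rule against markers of other cells stood in for it, and an alternative left out 92 members with over 3 times the median UMIs of their library's members. Samples are single animals.

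Beside list members, up to 5 genes per direction were named for each group comparison (adjusted p under 0.05, no overlap, at least 10 UMIs in each library of the higher group), and up to 12 per direction for sides and endothelial nuclei (mean of at least 50 CPM, same direction throughout). Unnamed gene models were counted and not named. Genes outside these rules that are named were chosen after their values were seen.

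Hip and PFC libraries of one mouse are paired by animal. Deviations from group means correlated at r = -0.199 to 0.258 within a mouse and -0.261 to 0.285 between mice, across 4580 genes. On simulated data, 4-fold changes were recovered for 96% of changed genes in GF against SPF in each region, 74% between sides and 100% against endothelial nuclei, and 2-fold changes for 23% in Hip, 22% in PFC, 9% between sides and 95% against endothelial nuclei. Some genes of the lists are not reported here.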

Additional observations from a re-analysis of the deposited data

Results flagged for a closer look

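Of the genes named by rule or held in a list, 18 differed between the regions in their GF against SPF change by the edgeR test of the difference itself. The values are log2 fold changes in Hip minus those in PFC. With the mouse as a block 13 of the 18 passed, all but Nrg3os, Anapc16, Cdh13, Itga6 and Gjc1 (edgeR adjusted p = 0.0580 to 0.114). Without the astrocyte-marked nuclei 9 passed, Gabra2, Sorbs2os, Gpc5, Cmss1, Camk1d, Slc4a3, mt-Co1, mt-Nd1 and mt-Nd5.

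Npas3, a neuronal and astrocytic transcription factor, differed by -4.10 (edgeR adjusted p = 0.0117). Gabra2, a GABA-A receptor subunit, differed by -3.47 (edgeR adjusted p = 0.00569). Sorbs2os differed by -5.18 (edgeR adjusted p = 0.00745) and Nrg3os by -6.91 (edgeR adjusted p = 0.0388). Anapc16 differed by -6.86, Gpc5 by -4.25, Cdh13 by -3.75, Ptprz1 by -3.51 and Itga6 by -3.44, with edgeR adjusted p of 0.0394, 0.0193, 0.0484, 0.0174 and 0.0394. Nrg3os and Anapc16 had 0 UMIs in the PFC of SPF mice, so their fitted values are no bounds.

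Lars2 (3.36), Cmss1 (3.403), Camk1d (3.24) and mt-Nd5 (3.83) differed in the other direction, with edgeR adjusted p of 0.0138, 0.00195, 0.00195 and 0.0065. The same direction was seen for mt-Co1 (3.86), Srrt (3.71), mt-Nd1 (3.69), Slc4a3 (3.64) and Gjc1 (2.00), with edgeR adjusted p of 0.00237, 0.0202, 0.0128, 0.0154 and 0.0384. Gm42418 differed by 4.38 on the same scale, and the part of library preparation in these values was not tested.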

How the results depend on the processing

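The alternatives that left out astrocyte-marked or high-UMI members, and those on the 4 mice of the side comparison, were chosen after seeing the data. Counts of genes called moved most. For these counts, thinning was of the summed member UMIs, with the members as chosen at full depth. For GF against SPF in Hip (123) they were 356 with no filter, 217 without high-UMI members, 221 with 2 groups only and 0 to 135 leaving out 1 mouse. For CGF against SPF in Hip (0) they were 4 with DESeq2, 79 with no filter and 3 without high-UMI members. For GF against CGF in Hip (206) they were 416 with no filter, 72 with at least 5 rule UMIs, 16 without astrocyte-marked and 427 without high-UMI members, 74 with 2 groups and 0 to 345 leaving out 1 mouse. For GF against SPF in PFC (298) they were 187 with DESeq2, 466 with no filter, 162 thinned, 156 with at least 5 rule UMIs and 133 to 279 leaving out 1 mouse. For CGF against SPF in PFC (0) they were 5 with no filter, 8 without high-UMI members and 0 to 1 leaving out 1 mouse. For GF against CGF in PFC (328) they were 155 with DESeq2, 537 with no filter, 173 thinned, 156 with at least 5 rule UMIs, 212 without astrocyte-marked members and 135 to 312 leaving out 1 mouse. For Hip against PFC in GF (3) they were 7 with DESeq2, 39 with no filter, 6 without high-UMI members and 1 to 2 leaving out 1 mouse. For the region difference (70) they were 106 with DESeq2, 224 with no filter, 17 with at least 5 rule UMIs, 24 without astrocyte-marked and 113 without high-UMI members, 44 with the replicate block and 12 to 58 leaving out 1 mouse. For the sides (157) they were 286 with no filter, 0 in Hip alone, 316 with at least 2 UMIs of the side gene, 781 with all mice that had both sides and 9 to 285 leaving out 1 mouse. The fit on PFC libraries alone could not be made, with 1 mouse. Against endothelial nuclei (2492) they were 1217 with no replicate block and 1482 in Hip alone.

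The GF minus SPF share was -13.8 points in Hip and -13.5 in PFC over vascular nuclei. Over kept nuclei the Hip value (-0.281) ranged to -0.0569 with a ratio of 4 and -0.0598 with libraries thinned, and the PFC value (-0.0798) was -0.236 and -0.217 under these and 0.0552 without SPF mouse 32. The Hip minus PFC share was -0.0918 with at least 5 rule UMIs, -0.164 without high-UMI members and -0.212 to -0.130 leaving out 1 mouse. The Hip minus PFC muscle share was 6.46 without astrocyte-marked members and 2.74 to 6.08 leaving out 1 mouse. Against endothelial nuclei Ptprz1 reversed to -0.20 without astrocyte-marked members, and Atp5g3 (0.064) and Slit3 (-0.27) reversed without high-UMI members. Of the other values for named genes, 3488 kept direction and side of the threshold and 839 lost the call. The causes were not tested. Genes not tested under an alternative are not counted. With 14 to 77 members a library, 23% of simulated 2-fold changes were recovered for GF against SPF in Hip and 22% in PFC. Between the sides, with 48 muscle side nuclei over 4 mice, 9% were recovered.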
